A study of Homo sapiens with 4 samples.

Results

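The genes described here are 9 very long protein-coding genes that lie at common fragile sites: FHIT, WWOX, LSAMP, IMMP2L, MACROD2, NAALADL2, LRP1B, AUTS2 and DLG2. They were chosen by name, as 9 of the 20033 protein-coding genes in the annotation, and each was taken as its whole annotated interval in hg38. Every BrdU peak that overlapped an interval by at least 1 bp was counted. The genes were compared with the other 314 protein-coding genes over 500 kb. The counts cover these gene intervals with the peaks of all timepoints together, not the whole fragile sites and no timepoint on its own.

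BrdU-Seq maps newly made DNA, since cells build the thymidine analogue BrdU into the strands that they copy during a pulse. The cells were BJ-hTERT, a line of human foreskin fibroblasts immortalized with telomerase, which were held by serum starvation, released into serum and collected at 5 timepoints through S phase (16, 19, 22, 24 and 28 h) in 2 repeats. BrdU peaks, which the study used as sites where replication forks slow down or pause, were called by its authors at each timepoint against Input DNA, and all timepoints stand in a single list of 33295 peaks without a label for timepoint or repeat. The series also holds 4 ChIP-Seq samples of the same cells, 1 each for RNAPII and PCNA at 14 and 16 h, which were not analysed here.

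Common fragile sites are chromosome regions that show gaps and breaks in metaphase when replication is slowed. Many of them lie in very long genes that, in the cell types where they break, replicate late and hold few replication origins, so that a fork has to travel far and replication may be unfinished when mitosis begins. FHIT lies at FRA3B, WWOX at FRA16D and IMMP2L at FRA7K, and which of these sites break differs between cell types.

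Overlapping or touching peaks were joined into 25634 merged sites, which are called sites from here on. The 9 genes held 18 peaks in 17 sites over 13.55 Mb, or 0.125 sites per 100 kb (95% exact Poisson interval 0.0731 to 0.201). The other long genes together held 0.421 sites per 100 kb (0.396 to 0.447), and the genome outside runs of unknown bases held 0.873. Pooled over their length, the 9 genes thus held 3.36-fold fewer sites than the other long genes and 6.96-fold fewer than the genome. The gap was much smaller between typical genes, with a median of 0.111 sites per 100 kb over the 9 genes and 0.142 over the other long genes. Since the list carries no timepoint, repeat or score, no spread between repeats could be given and the depth behind a peak is unknown. The intervals cover counting error only and treat sites as independent of each other. In the other long genes, 81.5% of the distances between neighbouring sites in a gene were under 100 kb, so their interval is too narrow.

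The hg38 sequences of 7 sites are shown because they are the DNA in which peaks were called in these genes. In WWOX, LSAMP, IMMP2L, NAALADL2, LRP1B and DLG2, the one with the most peaks over one base was taken, or the widest among equals. All are written 5′ to 3′ on the + strand, and for sites wider than 300 bp the central 300 bp are given. Capitals mark perfect short tandem repeats of 15 bp or more in WWOX, IMMP2L and the last sequence, and 1 unit of the array in NAALADL2. The last sequence, a second site of LRP1B, was added after its values were seen because it held the only long CA tract.

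WWOX chr16:78783778-78784077: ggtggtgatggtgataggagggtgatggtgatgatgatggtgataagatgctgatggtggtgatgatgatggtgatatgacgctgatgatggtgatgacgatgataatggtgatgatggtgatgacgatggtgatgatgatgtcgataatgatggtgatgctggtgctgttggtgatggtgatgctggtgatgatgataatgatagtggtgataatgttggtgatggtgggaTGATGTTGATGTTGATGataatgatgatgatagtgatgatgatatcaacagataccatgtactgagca
LSAMP chr3:116399264-116399538: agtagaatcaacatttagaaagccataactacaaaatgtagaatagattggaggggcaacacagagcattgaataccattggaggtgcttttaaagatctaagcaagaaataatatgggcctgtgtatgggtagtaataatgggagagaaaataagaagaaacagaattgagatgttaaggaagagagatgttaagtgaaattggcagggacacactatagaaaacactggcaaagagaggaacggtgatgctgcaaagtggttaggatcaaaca
IMMP2L chr7:111084415-111084650: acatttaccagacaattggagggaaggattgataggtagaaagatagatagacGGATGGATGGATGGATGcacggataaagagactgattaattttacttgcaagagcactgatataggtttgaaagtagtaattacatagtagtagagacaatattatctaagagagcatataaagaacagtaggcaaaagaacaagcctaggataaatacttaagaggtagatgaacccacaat
NAALADL2 chr3:174484273-174484572: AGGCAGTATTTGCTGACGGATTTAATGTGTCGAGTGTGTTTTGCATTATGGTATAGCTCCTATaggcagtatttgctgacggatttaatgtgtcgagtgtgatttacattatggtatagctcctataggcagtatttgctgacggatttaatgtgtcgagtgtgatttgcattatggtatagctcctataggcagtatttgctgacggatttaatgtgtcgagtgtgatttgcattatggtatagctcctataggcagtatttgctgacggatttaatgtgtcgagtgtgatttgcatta
LRP1B chr2:141433256-141433494: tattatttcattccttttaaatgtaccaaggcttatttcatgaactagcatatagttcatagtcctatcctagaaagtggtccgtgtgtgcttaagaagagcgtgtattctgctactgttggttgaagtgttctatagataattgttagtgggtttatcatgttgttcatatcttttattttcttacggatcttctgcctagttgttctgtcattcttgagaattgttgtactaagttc
DLG2 chr11:84753644-84753943: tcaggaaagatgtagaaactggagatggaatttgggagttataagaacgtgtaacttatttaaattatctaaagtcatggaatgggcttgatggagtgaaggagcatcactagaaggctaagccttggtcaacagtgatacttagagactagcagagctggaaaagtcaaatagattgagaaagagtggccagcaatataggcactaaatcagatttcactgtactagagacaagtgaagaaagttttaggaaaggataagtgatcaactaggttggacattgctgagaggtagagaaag
LRP1B chr2:141324011-141324248: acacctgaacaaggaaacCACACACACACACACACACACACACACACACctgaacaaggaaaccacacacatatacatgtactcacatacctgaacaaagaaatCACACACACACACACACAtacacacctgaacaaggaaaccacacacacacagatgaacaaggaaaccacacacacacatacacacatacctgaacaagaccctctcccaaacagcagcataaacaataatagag

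The whole WWOX site matched itself at 59.1% of its positions at an offset of 3 bp, and the capitals mark the only perfect repeat of 15 bp or more in the stretch shown, of 17 bp. In IMMP2L the capitals mark a 17-bp run of the unit ggat, and a run of gata too short to be marked stood just before it. The NAALADL2 site was a tandem array that matched itself at 87.2% of its positions at an offset of 63 bp. The LRP1B site in capitals held a CA tract of 31 bp and a shorter one. The shown sites of LSAMP and DLG2 and the first one of LRP1B held no perfect short repeat of that length.

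FHIT, a diadenosine triphosphate hydrolase with tumour suppressor activity, spans 1504 kb at chr3:59747277-61251459 on the - strand. It held 2 sites, 0.133 per 100 kb (95% interval 0.0161 to 0.48). At 52.1% of the gene length, the site at chr3:60467976-60468188 lay in intron 5, which covers 34.8% of the gene. The other, at 39.2%, lay in intron 4. They stood 194 kb apart, and the rest of the gene was free of sites over up to 720.7 kb.

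WWOX, an oxidoreductase with WW domains, spans 1113 kb at chr16:78099400-79212667 on the + strand. Its only site, at chr16:78783710-78784145, lay at 61.5% of the gene length in intron 8. This last intron measures 778.9 kb and makes up 70.0% of the gene. The site gave 0.0898 per 100 kb (0.00227 to 0.5).

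LSAMP encodes a cell adhesion protein of the IgLON family and spans 1337 kb at chr3:115802374-117139389 on the - strand. Both of its sites stood close to the middle of the gene, 100 kb apart, and gave 0.15 per 100 kb (0.0181 to 0.54). The site at 55.3% lay in intron 1 of the MANE Select transcript, the reference transcript of the gene, at chr3:116399264-116399538. The site at 47.8%, chr3:116499773-116499994, lay upstream of that transcript and in an intron of a longer one.

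IMMP2L, a subunit of a peptidase of the inner mitochondrial membrane, is the shortest of the 9 genes and spans 899.9 kb at chr7:110662644-111562517 on the - strand. Its single site, at chr7:111084415-111084650, lay at 53.1% of the gene length, in intron 3. That intron makes up 58.2% of the gene, and the site was 121 kb from the nearest exon of IMMP2L, the farthest among the 17. The density was 0.111 per 100 kb (0.00281 to 0.619).

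MACROD2, a hydrolase that removes mono-ADP-ribose, and AUTS2, a regulator of transcription in neural development, held no site. MACROD2 spans 2058 kb at chr20:13995369-16053197 on the + strand, and a count of 0 allows up to 0.146 sites per 100 kb, taken as 3 sites in the gene. AUTS2 spans 1195 kb at chr7:69598296-70793506 on the + strand, and there the limit is 0.251. Among the other long genes 37.6% held no site either, so that 2 of 9 is no larger a share than the background.

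NAALADL2, a relative of N-acetylated alpha-linked acidic dipeptidases, held the most sites among the 9 genes. Within its 1372 kb at chr3:174438573-175810548 on the + strand stood 6 sites from 7 peaks, or 0.437 per 100 kb (0.16 to 0.952), above 76.4% of the other long genes. Its sites were grouped towards the ends of the gene. There were 3 within the first 3.34% of its length, at chr3:174443018-174443270, chr3:174481164-174481399 and chr3:174483961-174484885, all upstream of the MANE Select transcript. The latter was the 63-bp array, which is 925 bp wide, and the only site in the 9 genes where 2 peaks lay over one base. Another site stood at 34.8%, in intron 1 at chr3:174916420-174916682. The remaining sites, at 89.1% and 92.7%, shared intron 11 and lay at chr3:175660743-175661081 and chr3:175710181-175710453.

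LRP1B, a large receptor of the LDL receptor family, spans 1900 kb at chr2:140231423-142131016 on the - strand and has 91 exons. It held 3 sites, 0.158 per 100 kb (0.0326 to 0.462). The sites at chr2:141433256-141433494 and chr2:141324011-141324248, at 36.7% and 42.5% of the gene length, shared intron 3, 109 kb apart. The site at chr2:140317329-140317527, at 95.5%, lay in intron 82, a short intron of 6.863 kb in the part of the gene where exons are dense. Between it and the other sites, 1006 kb were free of sites.

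DLG2, a scaffold protein of the postsynaptic density, is the longest of the 9 genes and spans 2173 kb at chr11:83455012-85628335 on the - strand. It held 2 sites, 0.092 per 100 kb (0.0111 to 0.332), which stood 1002 kb apart. At 40.2% of the gene length, in intron 6, lay chr11:84753636-84753952, which also fell inside the gene ENSG00000254787. The other, chr11:83751248-83751446, lay at 86.4%, in intron 18.

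**Figure D1:**
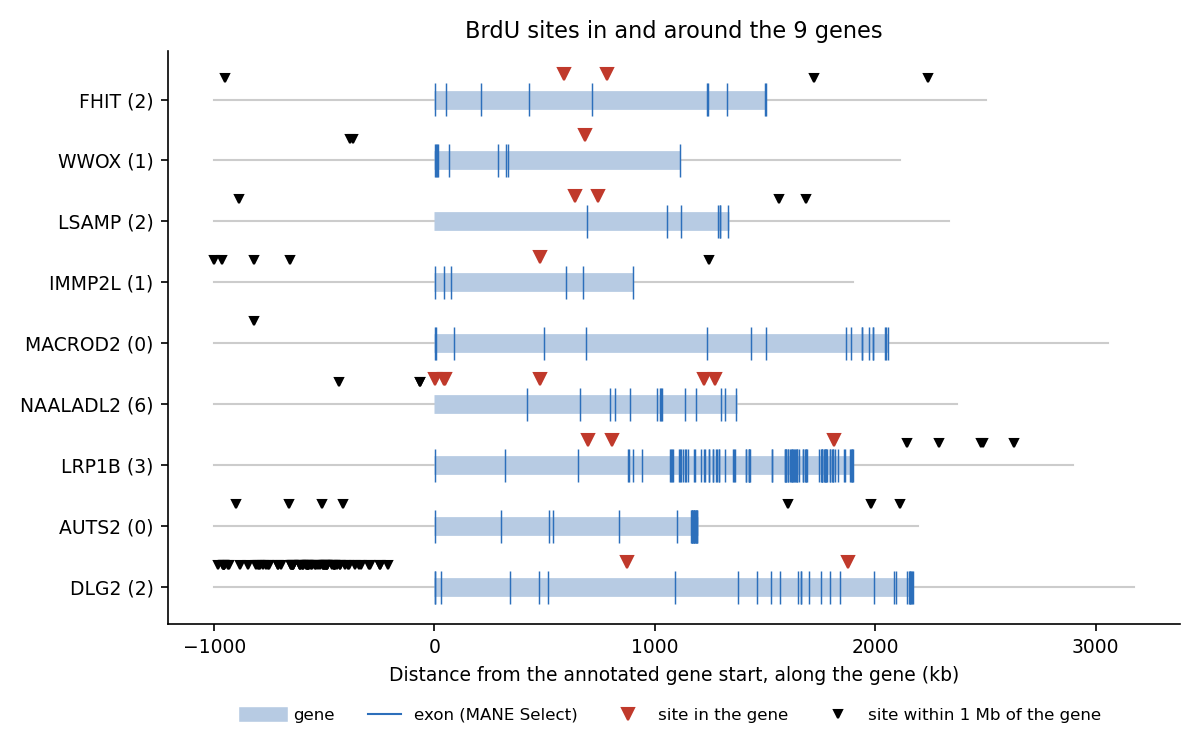
BrdU sites along the 9 genes, each drawn from its annotated start in the direction of transcription, with 1 Mb on each side; the x axis is the distance from the start in kb, pale bars are genes, blue lines exons of the MANE Select transcript, red triangles sites in the gene and black triangles sites outside it. The number after each name is its count of sites, from 0 in MACROD2 and AUTS2 to 6 in NAALADL2, and the dense black row lies upstream of DLG2.

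The order by density was NAALADL2, LRP1B, LSAMP, FHIT, IMMP2L, DLG2, WWOX, and then MACROD2 and AUTS2 at 0. For genes with a site, the 95% intervals of neighbours in this order overlapped. The values of FHIT, IMMP2L, DLG2 and WWOX lay below the limits that a count of 0 allows in MACROD2 and in AUTS2. Those of LSAMP and LRP1B lay below the limit of AUTS2 only. All 9 genes lay below the density of the genome, but so did 84.7% of the other long genes. Only 3 of the 9, NAALADL2, LRP1B and LSAMP, were above the median of the other long genes, which by construction 50.0% of those exceeded. LSAMP and LRP1B passed it narrowly, at 0.15 and 0.158 against 0.142. With the genes on the X chromosome left out, the median was 0.16, and only NAALADL2 passed it.

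The pooled density of the other long genes was carried by a minority with many sites. The densest were SYN3 with 9.63, STK3 with 7.35 and SBF2 with 6.06 sites per 100 kb. None of the 9 genes came near such values. At the other end stood 118 genes without a site, among them the autosomal genes PDE4D and CNTN5, so that MACROD2 and AUTS2 were not alone. At the pooled density of the other long genes, 57.1 sites would lie in the 9 genes, where 17 were found. Without the 10 densest other genes, a comparison chosen after the data were seen, the ratio of the pooled densities was 0.43 in place of 0.298.

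The 9 genes were longer than most of the genes they were compared with. They had a median length of 1372 kb, against 715.5 kb for the other long genes, and their AT content ranged from 57.4% in WWOX to 65.2% in LRP1B. Against the 84 autosomal genes at least as long as IMMP2L, the pooled density was 2.48-fold lower in the 9 genes (0.311 sites per 100 kb in the 84), while the median over the 84 was 0.14. Against the 70 that also fell within the same range of AT content, it was 2.5-fold lower, with a median of 0.142. Genes with an AT content below that range were denser, at 0.842 pooled and 0.463 in the median over 46 genes. The sets of 84 and 70 genes also held dense genes, with up to 4.36 sites per 100 kb. Neither of their pooled ratios was recomputed without the densest. Each of the 9 was also set beside the other long gene nearest to it in length. The density was lower in the fragile site gene in 5 of 9 pairs, of which IMMP2L and its pair held 1 site each, and the median over the paired genes was 0.111, the same as over the 9.

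**Figure D2:**
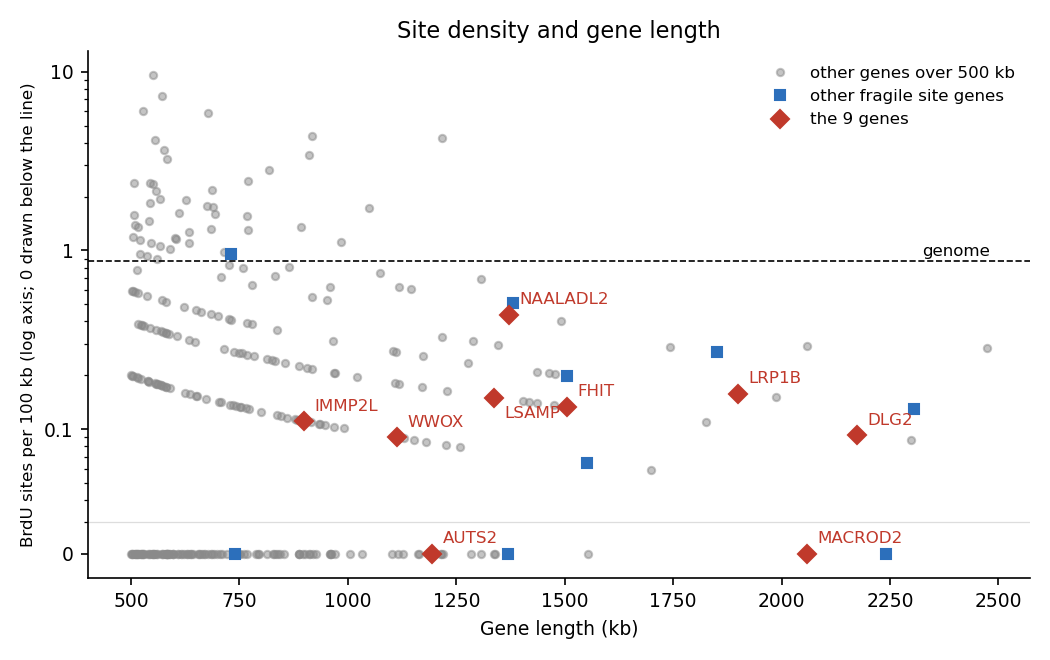
BrdU sites per 100 kb (log axis, with genes at 0 drawn below the line) against gene length in kb for the 9 genes (red), 9 other genes at fragile sites (blue) and the remaining genes over 500 kb (grey); the dashed line is the density of the genome, 0.873. Each of the 9 genes lies below that line, among the other genes of like length, and the 3 densest grey genes are shorter than any of the 9; the curved rows are genes with 1, 2 or 3 sites.

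A second list of 9 genes at common fragile sites, among them CNTNAP2, DMD, CTNNA3, DAB1, IL1RAPL1, NBEA and RORA, was counted in the same way. It held 26 sites, 0.19 per 100 kb (0.124 to 0.279), with a median of 0.13. The densest was NBEA, with 0.958. DMD, IL1RAPL1 and RORA held none, of which DMD, the dystrophin gene, and IL1RAPL1 are on the X chromosome, where none of the 13 long genes of the comparison held a site. Both lists had low pooled densities next to the other long genes as a whole, and their intervals overlapped. The 7 autosomal genes of the second list alone held 0.258 per 100 kb (0.169 to 0.378). That interval takes in the 0.311 of the 84 autosomal genes at least as long as IMMP2L.

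All 17 sites were intronic. None overlapped an exon of any annotated transcript of its gene, a share whose 95% Wilson interval reaches 18.4%. Among the other long genes 1.02% of the sites did. Exons cover only 0.983% of the bases of the 9 genes, so that 17 sites can show little about exons. In the MANE Select transcripts, 13 sites lay in an intron and 4 lay upstream of the transcript. In 6 genes a site fell in the longest intron, and these 6 sites were 35.3% of all (Wilson 17.3 to 58.7%), beside the 30.8% of the bases that the longest introns cover. The median distance to the nearest exon of the gene was 32.7 kb, against 14.8 kb for the other long genes, and ranged from 1.99 kb in NAALADL2 to 121 kb in IMMP2L.

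Along the gene, the sites stood most often near the middle. With each gene cut into 5 equal stretches, these held 3, 3, 6, 1 and 4 sites from start to end. The middle stretch, from 40 to 60% of the gene length, thus held 35.3% of the sites (Wilson 17.3 to 58.7%), from FHIT, LSAMP, IMMP2L, LRP1B and DLG2, against 14.1% (12.2 to 16.3%) in the other long genes. The DLG2 site, at 40.2%, was just inside the middle stretch and the WWOX site, at 61.5%, just outside. Leaving out NAALADL2, whose sites lay mostly at its ends, the middle stretch held 6 of 11 sites and the first none. The second list of fragile site genes went the other way, with 1 of 26 sites (3.85%, Wilson 0.682 to 18.9%) in the middle, 9 in the first stretch and 11 in the last. With 17 sites, each share has a wide interval, and sites in one gene are not independent of each other.

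**Figure D3:**
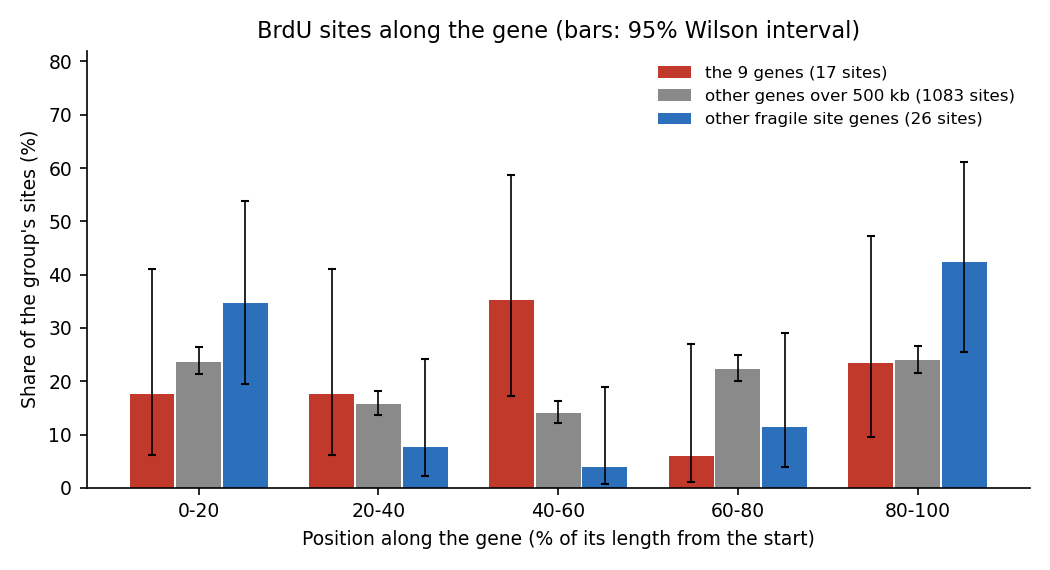
Share of BrdU sites (%, y axis) in 5 equal stretches of the gene, from its start to its end (x axis, % of gene length), for the 9 genes (red), the other genes over 500 kb (grey) and the 9 other genes at fragile sites (blue), with 95% Wilson intervals. The red bar is highest in the middle stretch, at 35.3%, where the blue bar is lowest, at 3.85%.

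Neighbouring sites were far apart. The 10 spacings between neighbours in the same gene had a median of 152 kb, against 16.4 kb in the other long genes, and went from 2.56 kb to 1010 kb. The 3 spacings under 100 kb were all in NAALADL2, whereas 81.5% of those in the other long genes were under that limit. Spacings were pooled over genes, so a gene with many sites supplied many of them and a gene without neighbouring sites supplied none. The contrast thus leans on the dense minority of the other long genes. A measure taken per gene, with genes without a site included, went the other way. The longest stretch free of sites covered a median of 53.1% of the gene in the 9 genes, against 78.5% in the other long genes. That share depends on gene length, and the other long genes were shorter, with a median of 715.5 kb against 1372 kb. A gene without a site counts as 100%, as did 37.6% of the other long genes. No value matched for length was computed, so the 2 measures cannot be weighed against each other. Of the 17 sites, 16 consisted of 1 peak, and the share with 2 peaks over one base was 5.88% (Wilson 1.05 to 27%), against 19.0% in the other long genes. Peaks of different timepoints may overlap in the list, so a depth of 2 cannot be told apart from a site seen at a pair of timepoints.

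Each of the 9 genes reached into a stretch of over 1 Mb without a site. The genome held 683 such stretches, 2.67% of all distances between neighbouring sites, and 66.6% of the other long genes touched one. Among those autosomal and at least as long as IMMP2L, it was 75%. The stretches covered 74.1% of the bases of the 9 genes, 56.7% of those of the other long genes and 47.7% of the genome. WWOX, MACROD2, AUTS2 and DLG2 lay in such stretches entirely, apart from the sites that bound them, and LRP1B by 89.7%. In NAALADL2 the share was 7.3%. The longest stretch was the one upstream of the first site of LRP1B, which measured 7.26 Mb, ranked number 7 in the genome and began 6560 kb ahead of the gene. The one across MACROD2 measured 4.00 Mb and ranked number 40.

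The low density was in most cases shared by the surroundings. The 500 kb on each side of a gene held 0.444 sites per 100 kb pooled over the 9 genes and 0.2 in the median, against 0.823 and 0.3 for the other long genes. Beside the 84 autosomal genes at least as long as IMMP2L there was hardly a difference, with 0.443 pooled and 0.2 in the median. Of the 40 flanking sites, 27 lay on the upstream side of DLG2, the nearest 213 kb from its start, while the downstream side held none. Without DLG2 the flanks held 0.163 per 100 kb. FHIT, IMMP2L and NAALADL2 were denser than their flanks, 3 of 9 beside 22.3% of the other long genes. WWOX, LSAMP, LRP1B, AUTS2 and DLG2 were less dense, 5 of 9 beside 64.0%. Of the 84 autosomal genes at least as long as IMMP2L, 26 were denser than their flanks and 52 less dense. MACROD2 held no site within 500 kb on either side, and its nearest ones were 817 kb upstream and 1130 kb downstream. Apart from DLG2, the flanks of a gene held no more than 3 sites, so each of these differences rests on few sites.

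**Figure D4:**
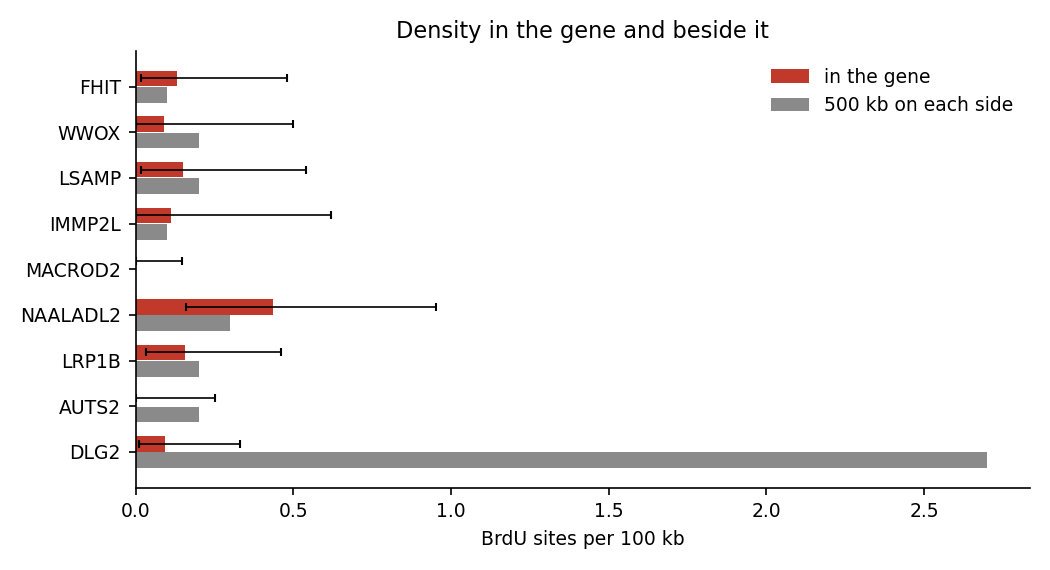
BrdU sites per 100 kb (x axis) in each of the 9 genes (red, with 95% exact Poisson intervals or, for the genes without a site, a line up to the limit that a count of 0 allows) and in the 500 kb on each side of it (grey, no interval drawn). In 8 genes both bars stay below 0.5, and the flanks of DLG2 reach 2.7.

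The sequences under the sites differed little in composition from those in the other long genes. Their AT content was 62.6% ± 2.65 (SD, n = 17 sites), against 60.3% ± 5.39 (n = 1081) for sites in the other long genes, and ranged from 56.7% at the CA tract of LRP1B to 67.1% in FHIT. The median AT content of the 9 genes as a whole was 62.8%. On the strand richer in T, thymidine, the base that BrdU replaces, made up 39.5% ± 4.75 of the bases, beside 38.0% ± 5.42. The median width was 239 bp, from 199 to 925 bp, beside 268 bp. The NAALADL2 array was the only site above the limit for a tandem array, 5.88% of the sites beside 8.51%. The LRP1B tract was the only perfect short tandem repeat of 20 bp or more, beside 3.89%. Imperfect repeats are missed by both rules, as at the WWOX site, which matched itself at 59.1% of its positions at an offset of 3 bp.

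Most of the sites held mainly sequence that is unique in the genome. Each site was cut into words of 24 bases and their copies on both strands of hg38 were counted, a measure chosen after the data were seen. At 13 of the 17 sites (76.5%, against 84.1% in the other long genes) the median word occurred once. The exceptions were the FHIT site in intron 4, with a median of 10.5 copies, and 3 sites of NAALADL2, with 9 at the array, 5 in intron 1 and 2 at the first site of intron 11. Copies inside the site itself are counted too. At the array, where no word had more than 13 copies, they may all lie within the site, which was not tested. At the CA tract of LRP1B the median word was unique, but a single word occurred 355569 times. How far reads could be placed at these sites was not tested.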

How the data were processed

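The deposited file is a list of BrdU peaks, and its values are positions in bp (chromosome, start and end), with no signal, count or score. Per the study's methods, the authors mapped reads to hg38, and each timepoint had its peaks called over Input DNA. The submitters' processing notes name Bowtie2 2.3.3.1, SAMtools 1.4 and MACS2 2.1.0. The methods say that repeats were compared and then analysed jointly, without the step at which their peaks were joined. The start column was taken as 0-based, and all printed positions are 1-based.

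Overlapping or touching peaks were merged and counted in the gene intervals of GENCODE version 44. The position along a gene was taken at the middle of a site. Arrays were sites that matched themselves at 70% or more of positions at an offset of up to 120 bp. Short tracts were perfect repeats of 20 bp or more with a unit of no more than 6 bp. Density intervals were exact Poisson and shares had Wilson intervals, both at 95%. The limit for a count of 0 was 3 sites per gene. The 314 other long genes include the second list of fragile site genes, and 8 overlap another long gene. No test was run, since the list is not divided by sample and the genes and lists were chosen with earlier results of these data known.

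All 9 genes are named. So are the 3 other long genes with the most sites per 100 kb, the 3 autosomal ones with the fewest (longer first) and members of the second list of fragile site genes. Some of these genes, and the sequence of 1 site, are not reported here. Alternatives were peaks as listed, merging within 1 kb, midpoints, gene ends left out, other sets of long genes, equal weight per gene, other exons, pooled bases, other flanks and the densest gene left out. The tools were Python 3.11.15 with scipy 1.17.1, pysam 0.24.0, pandas 2.3.3, numba 0.67.0 and numpy 2.4.6. Merging and counting were tested on simulated data, where they gave the same intervals and counts as bedtools 2.31.1.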

Additional observations from a re-analysis of the deposited data

How the results depend on the processing

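The 10 summary values were recomputed under 37 alternatives, of which 4 were added after the data were seen, and 33 stayed within their limits. For pooled density, its ratio and shares, the limits were the Poisson or Wilson intervals. For medians and the mean they were the SD across sites, spacings or genes, and counts of genes had to stay within a set factor. The SD is wide for spacing and position, so staying within it says little there. Only the ratio of pooled density had a direction that could turn, and it did not. The ratio of pooled density to the other long genes ranged from 0.215 without NAALADL2 to 0.43 without the 10 densest other genes. The count of genes above the median of the other long genes, 3, fell to 1 with peaks as listed, with autosomes only and with genes over 400 kb, and rose to 4 with genes over 750 kb. The count of genes denser than their flanks, 3, fell to 1 with flanks of 1 Mb. Pooled density fell from 0.125 to 0.0903 sites per 100 kb without NAALADL2. No paired analysis was possible because neither repeats nor timepoints are named in the list. For the same reason no repeat could be left out. Differences smaller than the counting intervals were not detectable with 17 sites, and how uniquely reads map in each gene was not taken into account.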

Other observations

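Among the 301 other long genes outside the X chromosome, site density went with that of the flanks (Spearman's rho = 0.49). It went less with AT content (rho = -0.24) and hardly with length (rho = -0.089). The 301 include a gene on the Y chromosome, which held no site. Genes and their flanks share chromosome neighbourhoods and the same list of peaks, so these values are descriptions across genes, which are not independent.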
